A study of Mus musculus with 6 samples.

Results

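The translation initiation factors of mouse dendritic cells were read on 6 Affymetrix MOE430A arrays. A member was any probe set with 1 annotated gene symbol that begins with Eif and a digit 1 to 6, leaving out symbols that begin with Eif2ak. There were 94 such probe sets for 38 genes among 22626 probe sets on the array. Of these, 82 probe sets for 37 genes were measured, among 14906 measured probe sets for 8934 named genes. Measured means a signal over 53.5 on at least 2 arrays, 53.5 being the 40th percentile of all signals. Eif2s3y, a Y-linked gene, was the only gene with no measured probe set, with signals up to 5.30 in cells from a female mouse. The dimmest measured probe set, 1437948_x_at of Eif3l, had a second-highest signal of 54.3, and the brightest left out, 1456613_at of Eif4ebp2, had 48.0.

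Each of the 6 groups was a single array. The cells were grown from bone marrow of a 13-week-old female CAR-transgenic mouse, with 7 days of expansion and 7 days of differentiation in GM-CSF at 250 U/ml, and all groups share this genotype; the labels do not tell whether 1 animal served all of them. CAR is a cell surface receptor that adenoviruses bind; the labels name no promoter for the transgene. AdIkBa-SR cells received an adenovirus for an IkBa super-repressor, a form of the NF-kB inhibitor IkBa that resists degradation, and AdOVA cells received a control adenovirus. Both viruses were given at 1500 particles per cell for 2 h, followed by 18 h of culture. The remaining cells got no virus, and no mock transduction is recorded for them. For each of these virus states, 1 group had TNFa at 50 ng/ml for the last 4 h and 1 had none. The 6 groups were thus AdIkBa-SR with TNFa, AdIkBa-SR, AdOVA with TNFa, AdOVA, TNFa alone, and untreated. Nothing in the labels tells whether each group was its own culture, so the p-values below measure only the spread between these arrays. In bulk RNA, fewer cells of a type and less RNA per cell cannot be told apart.

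Initiation factors bring the small ribosomal subunit, the initiator tRNA and the mRNA together and find the start codon. eIF2 delivers the initiator tRNA and is recharged by eIF2B. eIF3 is the many-subunit scaffold on the small subunit. eIF4F binds the mRNA cap through eIF4E, unwinds the leader through the helicase eIF4A and is held together by eIF4G. eIF4E-binding proteins hold eIF4E and keep it from eIF4G when they are not phosphorylated. In dendritic cells, the rate of protein synthesis is known to change during activation.

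Values are MAS5 signals, a linear brightness per probe set, as the authors deposited them, with a trimmed mean of 200.1 on each of the 6 arrays. Differences are on the log2 scale, with signals under 53.5 set to 53.5. They come from a limma fit over all 6 arrays that takes cells with and without TNFa as the repeats of a virus state. The fit has 1 TNFa term shared by the AdOVA and no-virus states, and a separate one for AdIkBa-SR cells. Fitted differences between virus states, and the shared TNFa term, are therefore means of 2 pairs of arrays. The TNFa response in AdIkBa-SR cells is that of 1 pair. Each probe set has 1 residual degree of freedom, moderated over all of them. It comes from the AdOVA and no-virus arrays alone. The SE and p of AdIkBa-SR comparisons in this fit thus hold no spread between the AdIkBa-SR arrays. A call is an adjusted p under 0.05 over all 14906 measured probe sets. Counts by the sign of a difference, or at an unadjusted p under 0.05, are given with no share over all probe sets. They are therefore not read as an excess over the whole array. A second count, with no test, took the probe sets whose 2 pairs each differed by 2-fold or more with the same sign. Signals of different probe sets are not compared with each other, since each depends on its own probes.

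Fluidics runs were inferred from the hybridization times in the array headers, all on 1 day. The untreated, TNFa and AdOVA arrays shared 1 recorded time, called run 1 here, and the others shared another, called run 2. A different wash program was recorded for the AdIkBa-SR array, with 0 and 0 wash cycles and a first stain of 420 s, against 10 and 4 cycles and 600 s elsewhere. AdOVA against untreated is a pair within run 1, and AdIkBa-SR with TNFa against AdOVA with TNFa is a pair within run 2 with the same wash. Of 12 dendritic cell markers, 11 were measured, and their summed signals were 17398 and 16291 on the AdIkBa-SR arrays with and without TNFa, 15100 and 16362 on the AdOVA arrays, and 19286 and 18293 on the arrays without virus. Both AdOVA arrays lay below the other 4 on 3 of these 11 markers (Itgax, Irf8 and Csf2rb) and above them on 1 (Ccr7). Itgax, the CD11c integrin, was at 846.9 and 663.9 in AdIkBa-SR cells with and without TNFa, 328.8 and 247.1 in AdOVA cells, and 755.1 and 699.5 in cells without virus. Ccr7, a chemokine receptor of migrating dendritic cells, was at 200.3 and 100.9 in AdIkBa-SR cells with and without TNFa, 516.0 and 402.3 in AdOVA cells, and 176.8 and 195.3 in cells without virus. Of 10 granulocyte markers 9 were measured, with summed signals of 42515 and 39331 on the AdIkBa-SR arrays, 23016 and 31615 on the AdOVA arrays, and 27348 and 36004 on the arrays without virus. The 6 mast cell and basophil markers summed to 1558.8 and 1611.5 on the AdIkBa-SR arrays with and without TNFa, 844.1 and 931.1 on the AdOVA arrays, and 1072.1 and 1299.7 on the arrays without virus, so both AdOVA arrays had the lowest sums. On 1 of the 6, the mast cell protease Cpa3, both AdOVA arrays lay below the other 4, at 285.9 and 275.5 with and without TNFa against 480.1 to 561.2. None of the 3 T cell markers on the array was measured. 18S ribosomal RNA, read by its 5′ probe set, was at 2601 on the AdOVA array with TNFa and 120 to 537 on the other 5, and the 3′/5′ ratio of beta-actin was highest, at 1.84, on the AdOVA array. The part of these in the results below was not tested.

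With AdOVA against no virus, the probe sets called lower were of the eIF3 subunits Eif3c, Eif3e, Eif3f and Eif3i, the helicase Eif4a1, the eIF2 gamma gene Eif2s3x, Eif1a and Eif5a. The fit called 13 of the 82 Eif probe sets lower and 1 higher, where 3.86% of all measured probe sets were called lower and 4.03% higher. Of the 82, 63 had a fitted difference below 0, and 30 had an unadjusted p under 0.05, 27 of them lower. The median difference was -0.26 over the Eif probe sets and 0.06 over all measured probe sets. In the pair without TNFa, which lies within 1 fluidics run, the Eif median was -0.29 and that of all probe sets 0.01, and in the pair with TNFa they were -0.27 and 0.07. At least 2-fold in both pairs were 2 Eif probe sets lower and 0 higher, against 1.37% and 1.91% of all probe sets. Without any 1 of the untreated, TNFa, AdOVA and AdOVA with TNFa arrays the fit leaves no residual degree of freedom. Arrays were therefore left out of an additive fit, with 1 TNFa response for all virus states. With all 6 arrays, the additive fit called 5 Eif probe sets lower. Without the untreated, TNFa, AdOVA or AdOVA with TNFa array it called 0 Eif probe sets and 0 of all probe sets lower, with 8 to 20 Eif probe sets lower at an unadjusted p under 0.05, and without either AdIkBa-SR array it called 14. In the fit with all arrays and separate TNFa responses, the count was 0 with quantile normalization, a floor of 100 or no filter on dim probe sets, and 18 of 80 with probe sets above the floor on all 6 arrays, where 7.09% of all were called. The additive fit with the fluidics run as a block called 0, with 7 lower at an unadjusted p under 0.05.

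**Figure D1:**
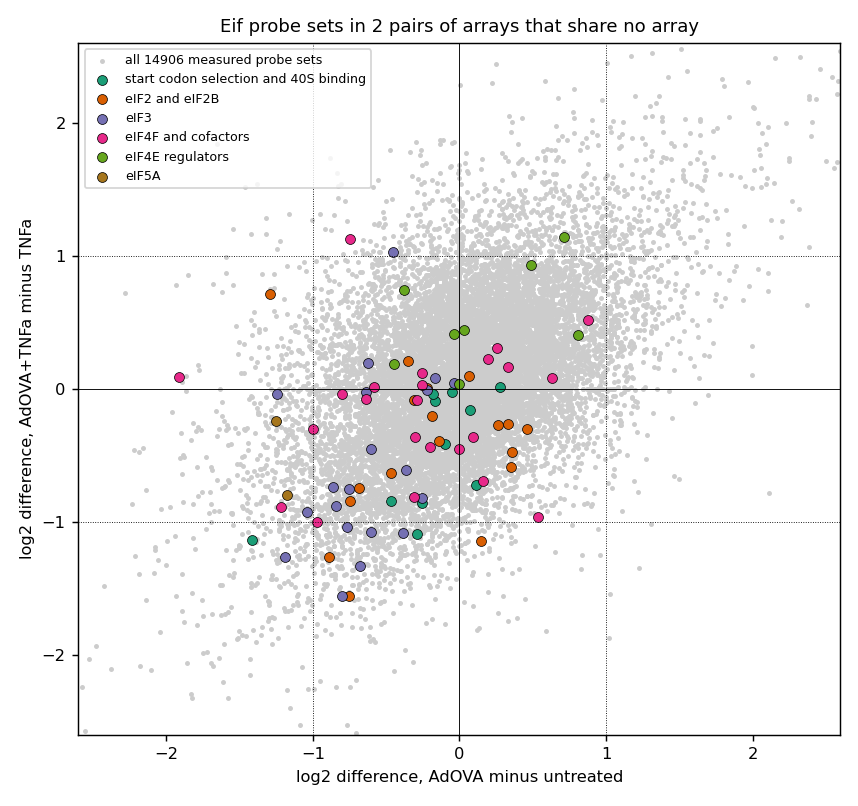
Log2 difference with AdOVA for each probe set without TNFa (AdOVA minus untreated, horizontal) and with TNFa (AdOVA with TNFa minus TNFa, vertical); grey points are all 14906 measured probe sets, coloured points the 82 Eif probe sets by role, and dotted lines mark 2-fold. The medians of the Eif points are -0.29 and -0.27 on these axes, though many points lie above 0 without TNFa, with TNFa or both. Of the 20 eIF3 probe sets, 18 have a fitted difference below 0.

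On 24 of the 82 Eif probe sets (29.3%), for 16 genes, both AdOVA arrays lay below all the other 4 arrays, against 11.7% of all measured probe sets. On 4 (4.88%) they lay above all the other 4, against 21.1% of all. Among all probe sets above the floor on all 6 arrays, as 80 of the 82 were, 13.5% lay below in this way and 18.5% above. Counting arrays in this way was chosen after the values were seen. The 24 comprised 10 of 20 eIF3 probe sets, 5 of 18 of eIF2 and eIF2B, 4 of 11 of the start codon and small subunit factors, 3 of 23 of eIF4F and its cofactors, and 2 of 2 of eIF5A. The 4 high ones were 1421986_at of Eif4e2, 1450909_at of Eif4e, 1451521_x_at of Eif4h and 1455575_at of Eif4ebp2.

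**Figure D2:**
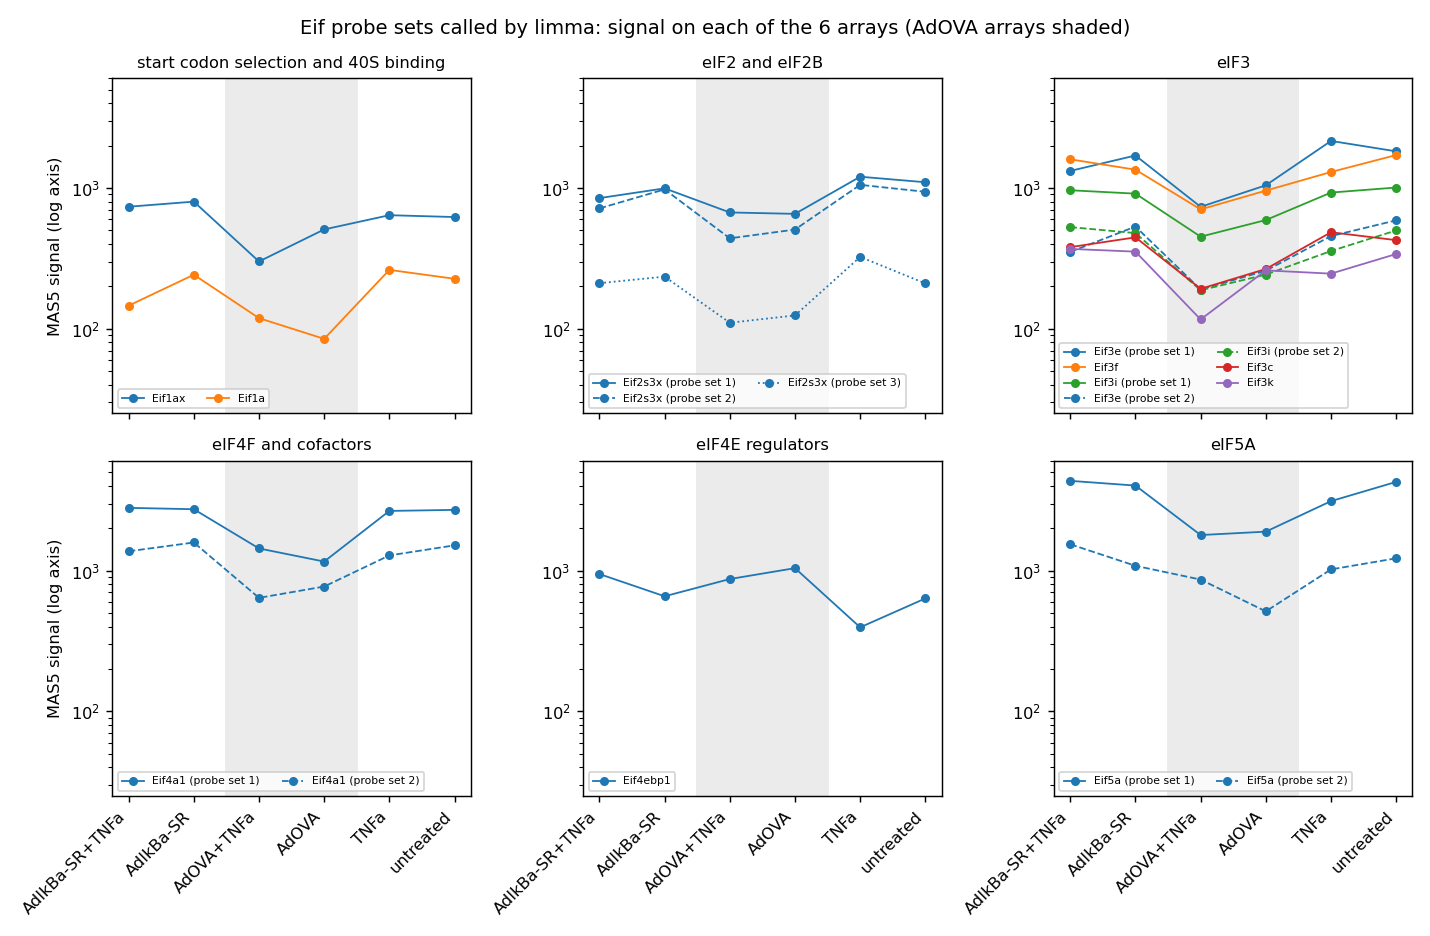
MAS5 signal (log axis) on each of the 6 arrays for the 17 Eif probe sets that limma called with AdOVA against no virus or with AdIkBa-SR against AdOVA, 1 panel per role and 1 point per array. Most lines are lowest in the shaded AdOVA columns, for example Eif4a1 at 1439 and 1161 against 2658 and 2704 without virus, while Eif4ebp1 stands higher there than without virus.

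The eIF3 scaffold had the most calls. Of its 20 measured probe sets, 6 were called lower with AdOVA and 0 higher, the median difference was -0.69, and 18 of 20 were below 0. Taking each gene by its brightest probe set, all 11 measured genes were below 0 and 3 were called: Eif3e, Eif3f and Eif3i. Eif3e, one of the subunits of the eIF3 core octamer, read 1322 with AdIkBa-SR and TNFa, 1700.5 with AdIkBa-SR, 734 with AdOVA and TNFa, 1044 with AdOVA, 2158 with TNFa alone and 1820.4 in untreated cells on 1460432_a_at. Both AdOVA arrays lay below the other 4, 2.94-fold under the array without virus in the pair with TNFa and 1.74-fold in the pair without. The fitted difference was -1.18 (SE 0.26, adjusted p = 0.008). A second Eif3e probe set, 1439268_x_at, was at least 2-fold lower in both pairs, with 351 and 532 in AdIkBa-SR cells with and without TNFa, 189.9 and 258 in AdOVA cells with and without TNFa, and 455 and 589 in cells without virus with and without TNFa, and a difference of -1.22 (SE 0.26, adjusted p = 0.0063). The third, 1434523_x_at, was not called (-0.53 (SE 0.24, adjusted p = 0.18)), and its lowest signal was on the AdIkBa-SR array with TNFa.

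Eif3f, another octamer subunit, read 1598 and 1348 in AdIkBa-SR cells with and without TNFa, 704 and 957 in AdOVA cells with and without TNFa, and 1298 and 1713 in cells without virus with and without TNFa. The 2 AdOVA arrays were the lowest and did not overlap the others, and the difference was -0.86 (SE 0.24, adjusted p = 0.033). Eif3i, a subunit of the module that sits with Eif3b and Eif3g, had 2 measured probe sets, and both were called lower. Signals of 1416233_at with and without TNFa were 963 and 911 in AdIkBa-SR cells, 451 and 591 in AdOVA cells, and 927 and 1007 in cells without virus, and its difference was -0.90 (SE 0.24, adjusted p = 0.025). Those of 1448264_a_at with and without TNFa were 527 and 478 in AdIkBa-SR cells, 188 and 242 in AdOVA cells, and 357 and 499 in cells without virus, with -0.98 (SE 0.26, adjusted p = 0.025). On both, the AdIkBa-SR and no-virus arrays overlapped and the AdOVA arrays lay below them.

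The Eif3c probe sets disagreed. 1456083_x_at, whose suffix marks probes that may also bind other transcripts, read 379.8 with AdIkBa-SR and TNFa, 446 with AdIkBa-SR, 192 with AdOVA and TNFa, 266 with AdOVA, 484 with TNFa alone and 426 in untreated cells, with a difference of -1.01 (SE 0.27, adjusted p = 0.028). The other 3 Eif3c probe sets were not called and had differences of -0.12 to 0.29. The brightest, 1415858_at, read 1068 and 717 in AdIkBa-SR cells with and without TNFa, 1006 and 675 in AdOVA cells with and without TNFa, and 954 and 759 in cells without virus with and without TNFa, with the 3 TNFa arrays the highest. No direction with AdOVA is therefore given for Eif3c, a core octamer subunit.

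Ranges over the 6 arrays are compared here and below by each gene's brightest probe set. Among the eIF3 genes with no call against no virus, Eif3k had the widest range over the 6 arrays (1.67 on the log2 scale) and Eif3a the narrowest (0.63). Eif3k, one of the subunits that budding yeast lacks, read 369 with AdIkBa-SR and TNFa, 353 with AdIkBa-SR, 116 with AdOVA and TNFa, 259.7 with AdOVA, 246 with TNFa alone and 339 in untreated cells. The AdOVA array overlapped the TNFa array, and the difference was -0.73 (SE 0.29, adjusted p = 0.13). Eif3a, the largest subunit and the backbone of the complex, read 1153 and 1358 in AdIkBa-SR cells with and without TNFa, 1048 and 1033 in AdOVA cells with and without TNFa, and 1602 and 1333 in cells without virus with and without TNFa on its brightest probe set. Both AdOVA arrays were again the lowest, by a margin that the fit did not call (-0.49 (SE 0.24, adjusted p = 0.23)). Eif3l and Eif3m, further octamer subunits, also had both AdOVA arrays below the other 4, with fitted differences of -0.75 and -0.84 and adjusted p = 0.072 and 0.069. Eif3b (-0.64), Eif3h (-0.54) and Eif3d (-0.22), the last known to bind the cap of some mRNAs in human cells, overlapped other arrays and were not called.

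In the eIF4F group the calls fell on 1 gene. Eif4a1, the main RNA helicase of eIF4F, was called lower on 2 of its 3 probe sets, the only calls among the 23 measured probe sets of the group. 1427058_at read 2795 and 2734 in AdIkBa-SR cells with and without TNFa, 1439 and 1161 in AdOVA cells with and without TNFa, and 2658 and 2704 in cells without virus with and without TNFa. The AdOVA arrays were 2.33-fold and 1.85-fold below the arrays without virus, in the pairs without and with TNFa, and the other 4 arrays lay within 2658 to 2795. The difference was -1.05 (SE 0.25, adjusted p = 0.016), and over the alternative settings it ranged between -1.21 and -0.90 with adjusted p between 0.0021 and 0.48. 1434985_a_at read 1374 with AdIkBa-SR and TNFa, 1586 with AdIkBa-SR, 641 with AdOVA and TNFa, 772 with AdOVA, 1284 with TNFa alone and 1514 in untreated cells, with a difference of -0.99 (SE 0.24, adjusted p = 0.015). The third, 1430980_a_at, read 2026 and 2084 in AdIkBa-SR cells with and without TNFa, 1468 and 1038 in AdOVA cells with and without TNFa, and 1814 and 2072 in cells without virus with and without TNFa. Its AdOVA arrays were also the lowest, but it was not called (-0.65 (SE 0.26, adjusted p = 0.13)).

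Eif4a2, the paralogous helicase, read 1657 and 2270.1 in AdIkBa-SR cells with and without TNFa, 1992 and 2212 in AdOVA cells with and without TNFa, and 2698 and 2546 in cells without virus with and without TNFa. Its lowest signal was on the AdIkBa-SR array with TNFa, the AdOVA arrays lay between the others, and the difference was -0.32 (SE 0.25, adjusted p = 0.48); whether Eif4a1 and Eif4a2 differ from each other was not tested. Eif4h, which stimulates the helicase, had the narrowest range of the group by brightest probe sets (0.39 on the log2 scale), at 1426 with AdIkBa-SR and TNFa, 1796 with AdIkBa-SR, 1766 with AdOVA and TNFa, 1472 with AdOVA, 1868 with TNFa alone and 1799 in untreated cells. Its 3 probe sets gave differences of -0.19 to 0.28, none called. The cap-binding protein Eif4e (-0.14), its relatives Eif4e2 (0.25), which binds the cap without joining eIF4G, and Eif4e3 (-0.26), the helicase cofactor Eif4b (-0.33) and the scaffold Eif4g3 (-0.07) were not called on any probe set. These values are of each gene's brightest probe set. Over all measured probe sets the signs were mixed for Eif4e (-0.56 to 0.21), Eif4e2 (-0.21 to 0.36) and Eif4e3 (-0.26 to 0.70).

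Single arrays stood out for 2 of these genes. Eif4g2, a scaffold that lacks the eIF4E-binding site, read 2366 on the AdOVA array and 3854 to 4269.9 on the other 5, with a difference of -0.42 (SE 0.29, adjusted p = 0.4). One of 3 Eif4b probe sets, 1426379_at, read 46.1 on the AdOVA array, under the floor, and 173 to 256 on the other 5. The AdOVA array with TNFa did not share either low value.

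Eif5a, a hypusine-bearing protein that was named as an initiation factor and is known to help ribosomes through elongation and termination, had 2 probe sets. 1451470_s_at read 4348 and 4024 in AdIkBa-SR cells with and without TNFa, 1792 and 1894 in AdOVA cells with and without TNFa, and 3119.7 and 4275 in cells without virus with and without TNFa. Both AdOVA arrays lay below the other 4, and the difference was -0.99 (SE 0.27, adjusted p = 0.031). 1437859_x_at read 1540.4 with AdIkBa-SR and TNFa, 1083 with AdIkBa-SR, 865 with AdOVA and TNFa, 514 with AdOVA, 1021 with TNFa alone and 1224 in untreated cells, again with the AdOVA arrays lowest, and was not called against no virus (-0.75 (SE 0.26, adjusted p = 0.09)).

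Of the 18 measured probe sets of eIF2 and eIF2B, 3 were called lower with AdOVA, all of Eif2s3x, and the group median was -0.20. Eif2s3x, the X-linked gene of the eIF2 gamma subunit that holds the initiator tRNA, was called on each of its 3 probe sets. 1451090_a_at read 716 and 977 in AdIkBa-SR cells with and without TNFa, 439 and 506 in AdOVA cells with and without TNFa, and 1052 and 939 in cells without virus with and without TNFa, a difference of -1.08 (SE 0.24, adjusted p = 0.0099). 1421895_at read 211 with AdIkBa-SR and TNFa, 234 with AdIkBa-SR, 110.2 with AdOVA and TNFa, 124 with AdOVA, 324 with TNFa alone and 209.9 in untreated cells, a difference of -1.16 (SE 0.32, adjusted p = 0.033). 1423744_x_at had the smallest difference, -0.79 (SE 0.24, adjusted p = 0.0461), at 847 and 994 in AdIkBa-SR cells with and without TNFa, 669.9 and 655 in AdOVA cells with and without TNFa, and 1202 and 1098 in cells without virus with and without TNFa. On all 3, no AdOVA array overlapped any of the other 4.

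No other eIF2 or eIF2B gene was called with AdOVA. Eif2s2, the beta subunit, had 6 measured probe sets with differences of -0.71 to 0.00, none called; 1417713_at was the only one with both AdOVA arrays lowest. Eif2b1, the alpha subunit of eIF2B, read 227 and 217 in AdIkBa-SR cells with and without TNFa, 105 and 114 in AdOVA cells with and without TNFa, and 163 and 157 in cells without virus with and without TNFa. Its AdOVA arrays were the lowest and its AdIkBa-SR arrays the highest, with a difference from no virus of -0.55 (SE 0.32, adjusted p = 0.32). Eif2b5, the catalytic subunit of eIF2B, had the widest range of the group by brightest probe sets (1.76 on the log2 scale), at 226 with AdIkBa-SR and TNFa, 170.1 with AdIkBa-SR, 249 with AdOVA and TNFa, 73.4 with AdOVA, 152 with TNFa alone and 179.5 in untreated cells, and only the AdOVA array without TNFa was low. Eif2d, which can deliver tRNA without eIF2, had the narrowest on the same basis (0.49), at 169 and 204 in AdIkBa-SR cells with and without TNFa, 191 and 192 in AdOVA cells with and without TNFa, and 203 and 237 in cells without virus with and without TNFa. Eif2b2 (0.08 on its brightest of 3 probe sets) and Eif2b4 (-0.11), the beta and delta subunits of eIF2B, were not called.

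Among the 11 probe sets of start codon selection and small subunit factors, 1 was called lower with AdOVA, and 10 were below 0 (median -0.26). It was 1424343_a_at of Eif1a, a factor that keeps the small subunit scanning, which read 146 and 242 in AdIkBa-SR cells with and without TNFa, 119 and 84.7 in AdOVA cells with and without TNFa, and 262 and 226 in cells without virus with and without TNFa. It was at least 2-fold lower in both pairs, with a difference of -1.28 (SE 0.32, adjusted p = 0.019). The other Eif1a probe set, 1424344_s_at, did not follow it (-0.13 (SE 0.28, adjusted p = 0.82)), so the gene's probe sets disagree. Eif1ax, the X-linked gene for a near-identical factor whose transcripts some of the same probes may bind, had the widest range of the group by brightest probe sets (1.41 on the log2 scale), at 736 with AdIkBa-SR and TNFa, 799.7 with AdIkBa-SR, 300.4 with AdOVA and TNFa, 507 with AdOVA, 641 with TNFa alone and 621 in untreated cells. Its AdOVA arrays were the lowest, with a difference of -0.69 (SE 0.26, adjusted p = 0.11). Eif6, which binds the large subunit and prevents early joining, had the narrowest range on the same basis (0.39), at 1041 and 794 in AdIkBa-SR cells with and without TNFa, 853 and 888 in AdOVA cells with and without TNFa, and 955 and 847 in cells without virus with and without TNFa. Eif5, which triggers GTP hydrolysis by eIF2, and Eif5b, the GTPase of subunit joining, each had 1 probe set with both AdOVA arrays lowest and differences of -0.56 and -0.65, not called. Eif1b, a start codon factor, was at 0.15.

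Among the proteins that hold back eIF4E, a probe set of Eif4ebp1 held the only call, higher with AdOVA. Of the 8 measured probe sets of Eif4ebp1, Eif4ebp2 and Eif4enif1, 7 had a difference above 0 with AdOVA (median 0.21), and 1 was called higher. It was 1417562_at of Eif4ebp1, an eIF4E-binding protein, which read 946 with AdIkBa-SR and TNFa, 658 with AdIkBa-SR, 872 with AdOVA and TNFa, 1043 with AdOVA, 396 with TNFa alone and 635 in untreated cells, with a difference of 0.93 (SE 0.24, adjusted p = 0.024). The AdOVA arrays were above both arrays without virus and overlapped the AdIkBa-SR arrays. The brightest Eif4ebp1 probe set, 1434976_x_at, read 1309 and 954 in AdIkBa-SR cells with and without TNFa, 877 and 1278 in AdOVA cells with and without TNFa, and 460.2 and 909.6 in cells without virus with and without TNFa and was not called (0.71 (SE 0.24, adjusted p = 0.077)). There the AdOVA array with TNFa lay below the untreated array. The call on 1417562_at was kept in 4 of 15 alternative settings. Eif4ebp2, a second eIF4E-binding protein, had the narrowest range of the group by brightest probe sets (0.50), at 268 with AdIkBa-SR and TNFa, 359.9 with AdIkBa-SR, 379 with AdOVA and TNFa, 380.1 with AdOVA, 370.5 with TNFa alone and 380.0 in untreated cells. Eif4enif1, which carries eIF4E into the nucleus, read 265 and 262 in AdIkBa-SR cells with and without TNFa, 429 and 342 in AdOVA cells with and without TNFa, and 323 and 351 in cells without virus with and without TNFa, highest with AdOVA and TNFa (0.19 (SE 0.27, adjusted p = 0.73)).

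**Figure D3:**
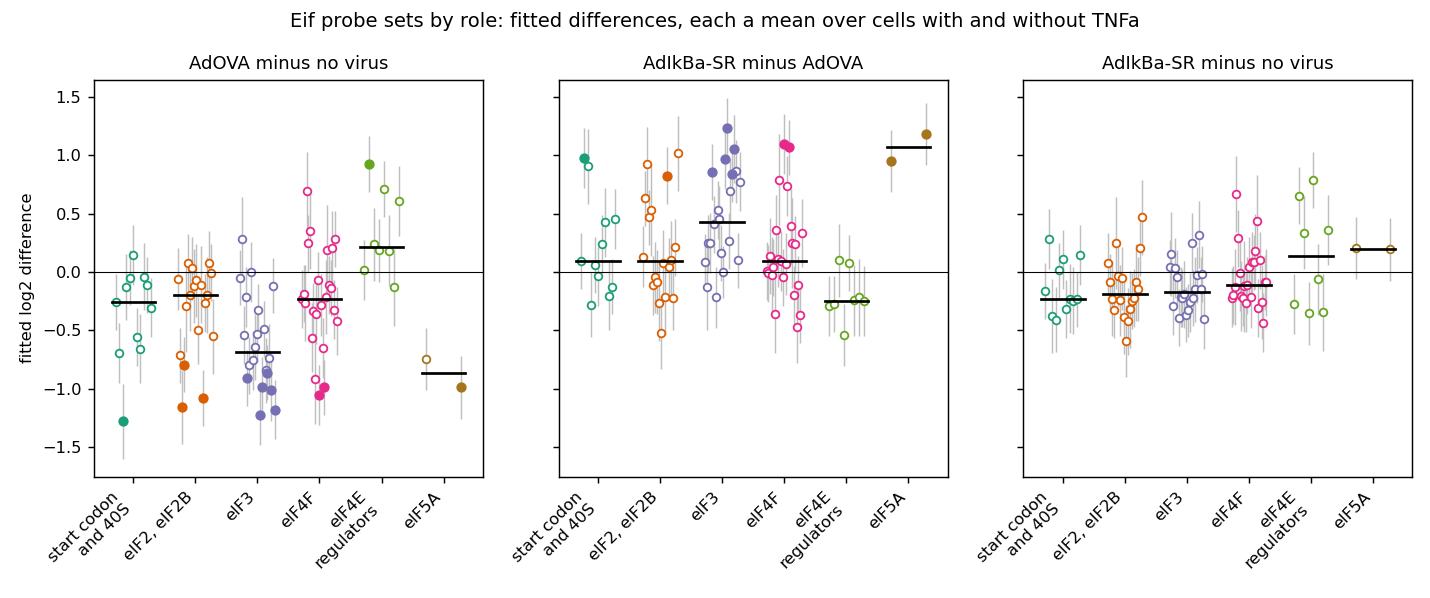
Fitted log2 difference of each Eif probe set by role for AdOVA minus no virus, AdIkBa-SR minus AdOVA and AdIkBa-SR minus no virus; points are probe sets, grey bars their SE, filled points are calls and black lines medians. The eIF3 median is -0.69 in the first panel, 0.43 in the second and -0.17 in the third, and the third panel has no filled point.

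With AdIkBa-SR in place of AdOVA, 11 of the 82 Eif probe sets were called higher and 0 lower, where 3.47% of all measured probe sets were called higher and 3.39% lower. This comparison uses the same 2 AdOVA arrays as the one above, so the values are given side by side and are not separate support. In the fit with separate TNFa responses, its SE and p hold no spread between the AdIkBa-SR arrays. An unadjusted p under 0.05 was found for 20 Eif probe sets, 0 of them lower. The median difference was 0.11 over the Eif probe sets and -0.09 over all. In the pair with TNFa, which lies within fluidics run 2 and has 1 wash setting, the Eif median was 0.13 and that of all probe sets -0.12, and in the pair without TNFa they were 0.27 and -0.03. At least 2-fold in both pairs were 2 Eif probe sets higher and 0 lower, against 1.13% and 1.65% of all. The additive fit called 4 higher with all 6 arrays and also 4 without the AdIkBa-SR array. Without any 1 of the other 5 arrays it called 0, with 7 to 20 higher at an unadjusted p under 0.05, and with the run as a block it called 0. In the fit with separate TNFa responses, the count was 0 with quantile normalization, a floor of 100 or no filter. It was 17 of 80 with probe sets above the floor on all 6 arrays, where 6.62% of all were called higher.

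The largest of these differences was that of the Eif3i probe set 1448264_a_at, 1.24 (SE 0.26, adjusted p = 0.0073), and the second Eif3i probe set was also called (0.86 (SE 0.24, adjusted p = 0.036)). Eif5a was called on both probe sets, with 1.18 (SE 0.27, adjusted p = 0.013) on 1451470_s_at, at least 2-fold higher in both pairs, and 0.95 (SE 0.26, adjusted p = 0.036) on 1437859_x_at. The same 2 of 3 probe sets of Eif4a1 were called, at 1.10 (SE 0.25, adjusted p = 0.014) on 1427058_at and 1.07 (SE 0.24, adjusted p = 0.011) on 1434985_a_at. The second was at least 2-fold higher in both pairs. Eif3k, not called against no virus, was called here, with both AdIkBa-SR arrays above the other 4 (1.05 (SE 0.29, adjusted p = 0.034)). Eif1ax was likewise called here, with its AdIkBa-SR arrays the highest (0.97 (SE 0.26, adjusted p = 0.028)). The remaining calls were 1439268_x_at of Eif3e (0.96, adjusted p = 0.029), Eif3f (0.84, adjusted p = 0.04) and 1451090_a_at of Eif2s3x (0.83, adjusted p = 0.045). By role, 17 of 20 eIF3 probe sets were above 0, with a median of 0.43. The eIF4E regulators had no call and a median of -0.25, with Eif4ebp1 1417562_at at -0.27 (SE 0.24, adjusted p = 0.54).

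Set against cells without virus, AdIkBa-SR cells had no called Eif probe set in limma, where 0.0335% of all measured probe sets were called higher and 0% lower. An unadjusted p under 0.05 was found for 2 Eif probe sets, and 0 were at least 2-fold apart in both pairs (0.134% of all higher, 0.0403% lower). The differences ranged between -0.59 and 0.79, with a median of -0.13 for the Eif probe sets and -0.02 for all. Both probe sets with an unadjusted p under 0.05 were of Eif4ebp1, at 0.79 (SE 0.24, adjusted p = 0.55) and 0.65 (SE 0.24, adjusted p = 0.77). A p over the threshold does not show that the levels were equal. Eif4a1 on 1427058_at had 0.04 (SE 0.25, adjusted p = 1), and Eif5a on 1451470_s_at had 0.20 (SE 0.27, adjusted p = 1). For Eif3e on 1460432_a_at the AdIkBa-SR arrays lay between the AdOVA and no-virus arrays, at -0.40 (SE 0.26, adjusted p = 0.97) from no virus.

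TNFa gave no called Eif probe set in limma over the cells without virus and with AdOVA, where 0.0268% of all measured probe sets were called higher and 0% lower. There were 8 Eif probe sets with an unadjusted p under 0.05, and 0 were 2-fold apart in both pairs (0.134% of all higher, 0.168% lower). The Eif median was -0.02 and that of all probe sets 0.04, with a range of -0.96 to 1.26. Eif4ebp1 on 1434976_x_at was at 877 with AdOVA and TNFa against 1278 with AdOVA, and at 460 with TNFa against 910 in untreated cells. In AdIkBa-SR cells it was at 1309 with TNFa against 954 without. The fitted TNFa difference was -0.76 (SE 0.24, adjusted p = 0.2) in the first 2 pairs and 0.46 (SE 0.34, adjusted p = 1) in AdIkBa-SR cells, and the difference between these responses was 1.22 (SE 0.42, adjusted p = 0.97), with an unadjusted p of 0.009. In AdIkBa-SR cells, 0 Eif probe sets were called for TNFa in limma, as were 0% of all probe sets in each direction, and 4 had an unadjusted p under 0.05. At least 2-fold there were 1415859_at of Eif3c, higher, and 1434523_x_at of Eif3e, lower (2.03% and 0.832% of all). The wash program differed between these 2 arrays, so wash and TNFa cannot be told apart there. The test of the difference of TNFa responses called 0 Eif probe sets and 0% of all, with 5 Eif probe sets at an unadjusted p under 0.05.

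The upstream sequences of 5 called genes that hold a searched motif are shown so that they can be compared. RefSeq (GRCm38.p6) promoters were available for 29 of the 37 measured Eif genes and 7 of the 11 called ones, and the 250 bases before each start were searched on both strands. The palindrome CACGTG, the E-box that Myc-family and other factors bind, was in at least 1 promoter of 7 of the 29 genes (24.1%) and of 6.86% of all 27025 genes. Those 7 were Eif1b, Eif3f, Eif3k, Eif4a1, Eif4e, Eif4h and Eif5a, of which Eif3f, Eif3k, Eif4a1 and Eif5a were called. TGATGNAA, the core of the amino acid response element, was in 1 of the 29 genes, Eif2s3x, and in 3.91% of all genes. The kB motif of the immunoglobulin kappa enhancer, which NF-kB binds, was in 0 of the 29 and 0.159% of all genes. None of these motifs overlap each other in the sequences shown. A match is a description of letters and says nothing of binding. The sequences run 5′ to 3′ on the gene's strand and end at the base before the start, with the matched motif in capitals.
Eif4a1, chr11:69672424-69672673, minus strand: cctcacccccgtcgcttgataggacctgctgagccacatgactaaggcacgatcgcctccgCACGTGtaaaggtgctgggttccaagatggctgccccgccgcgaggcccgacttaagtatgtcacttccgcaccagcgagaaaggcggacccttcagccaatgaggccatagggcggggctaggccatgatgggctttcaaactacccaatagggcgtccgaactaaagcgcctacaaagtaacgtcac
Eif5a, chr11:69921387-69921636, minus strand, the farthest upstream of 3 starts with the motif: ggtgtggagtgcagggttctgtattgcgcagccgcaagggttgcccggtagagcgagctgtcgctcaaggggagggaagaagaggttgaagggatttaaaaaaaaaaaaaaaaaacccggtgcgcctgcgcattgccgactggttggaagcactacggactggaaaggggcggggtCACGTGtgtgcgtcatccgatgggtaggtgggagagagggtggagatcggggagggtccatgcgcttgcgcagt
Eif3f, chr7:108934165-108934414, plus strand: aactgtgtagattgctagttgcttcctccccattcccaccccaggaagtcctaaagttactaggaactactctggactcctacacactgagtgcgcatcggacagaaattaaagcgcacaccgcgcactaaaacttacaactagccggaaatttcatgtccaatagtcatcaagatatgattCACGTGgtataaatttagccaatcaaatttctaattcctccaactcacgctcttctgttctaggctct
Eif3k, chr7:28981889-28982138, minus strand: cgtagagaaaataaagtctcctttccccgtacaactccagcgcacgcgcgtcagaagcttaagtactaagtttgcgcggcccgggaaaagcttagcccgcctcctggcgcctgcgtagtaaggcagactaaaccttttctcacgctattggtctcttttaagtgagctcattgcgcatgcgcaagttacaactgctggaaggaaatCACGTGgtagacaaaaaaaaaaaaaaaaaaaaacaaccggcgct
Eif2s3x, chrX:94212652-94212901, minus strand, motif on the opposite strand: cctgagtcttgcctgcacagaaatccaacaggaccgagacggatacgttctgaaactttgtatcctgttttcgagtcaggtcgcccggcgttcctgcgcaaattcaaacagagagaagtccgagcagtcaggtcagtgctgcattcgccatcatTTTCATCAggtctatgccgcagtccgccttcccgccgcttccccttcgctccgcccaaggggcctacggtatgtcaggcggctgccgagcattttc
The E-box of Eif4a1 began 189 bases before the start, that of Eif5a 74, that of Eif3f 68 and that of Eif3k 44.

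Of 47 other genes of the translation pathway, taken from lists of regulators, helpers and elongation and termination factors, 41 were measured, each read by its brightest probe set. With AdOVA, 2 were called higher and 6 lower, beside 4.03% of all measured probe sets called higher and 3.86% lower. Ddit4, an inhibitor of the mTORC1 kinase that phosphorylates eIF4E-binding proteins, read 658 and 505 in AdIkBa-SR cells with and without TNFa, 1326 and 1236 in AdOVA cells with and without TNFa, and 369 and 453 in cells without virus with and without TNFa, a difference of 1.65 (SE 0.24, adjusted p = 0.00035) from no virus. Ppp1r15a, the subunit that directs a phosphatase to eIF2 alpha, read 408 with AdIkBa-SR and TNFa, 215 with AdIkBa-SR, 801 with AdOVA and TNFa, 420.2 with AdOVA, 199 with TNFa alone and 203 in untreated cells, a difference of 1.53 (SE 0.29, adjusted p = 0.0028). It was the only one called of the 11 genes of the eIF2 kinases and the integrated stress response, all measured, which had a median of 0.37. Against AdOVA, AdIkBa-SR cells were lower for both, at -1.15 (SE 0.24, adjusted p = 0.0076) for Ddit4 and -0.97 (SE 0.29, adjusted p = 0.0471) for Ppp1r15a.

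**Figure D4:**
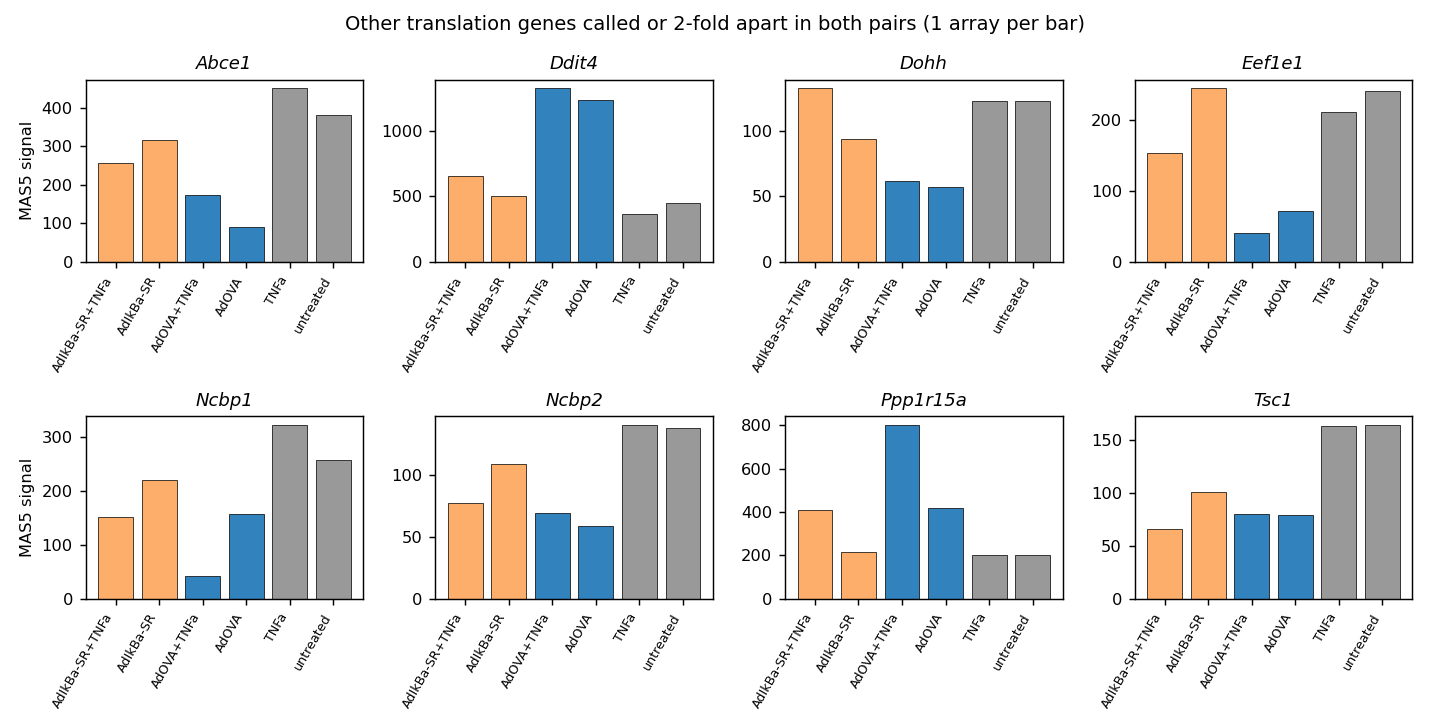
MAS5 signal (linear axis) on each of the 6 arrays for the 8 other translation genes that limma called or that were at least 2-fold apart in both pairs, 1 bar per array. Ddit4 and Ppp1r15a are highest on the AdOVA arrays, Ddit4 at 1326 and 1236 with and without TNFa, while Abce1, Dohh and Eef1e1 are lowest there.

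The 6 lower genes had other tasks. Eef1e1, an auxiliary protein of the tRNA synthetase complex, read 154 and 245 in AdIkBa-SR cells with and without TNFa, 40.7 and 71.9 in AdOVA cells with and without TNFa, and 211 and 241 in cells without virus with and without TNFa. The AdOVA array with TNFa was under the floor and both AdOVA arrays lay below the other 4, with differences of -1.86 (SE 0.33, adjusted p = 0.0016) for AdOVA from no virus and 1.65 (SE 0.33, adjusted p = 0.0051) for AdIkBa-SR from AdOVA. Abce1, which splits ribosomes after termination, read 255 with AdIkBa-SR and TNFa, 317 with AdIkBa-SR, 173 with AdOVA and TNFa, 89.6 with AdOVA, 450.2 with TNFa alone and 380.2 in untreated cells. Its differences were -1.73 (SE 0.29, adjusted p = 0.0013) for AdOVA from no virus and 1.19 (SE 0.29, adjusted p = 0.02) for AdIkBa-SR from AdOVA. Dohh, the enzyme of the last step of hypusine formation on eIF5A, read 132 and 93.4 in AdIkBa-SR cells with and without TNFa, 61.4 and 57.2 in AdOVA cells with and without TNFa, and 123 and 122 in cells without virus with and without TNFa. Its AdOVA arrays were about level with each other and below the other 4, with a difference of -1.05 (SE 0.30, adjusted p = 0.042) from no virus. Ncbp1, the large subunit of the nuclear cap-binding complex, read 151 and 219 in AdIkBa-SR cells with and without TNFa, 41.4 and 157 in AdOVA cells with and without TNFa, and 321 and 256 in cells without virus with and without TNFa, a difference of -1.65 (SE 0.38, adjusted p = 0.013) from no virus. The AdOVA array with TNFa was under the floor there too, so this difference and that of Eef1e1 are set in part by the floor. Ncbp2, its cap-binding partner, read 77.6 with AdIkBa-SR and TNFa, 109 with AdIkBa-SR, 69.6 with AdOVA and TNFa, 59.0 with AdOVA, 141 with TNFa alone and 139 in untreated cells, a difference of -1.12 (SE 0.31, adjusted p = 0.031). For both, all 4 arrays with a virus lay below the arrays without one. Tsc1, which restrains mTORC1 with Tsc2, read 65.3 with AdIkBa-SR and TNFa, 100.3 with AdIkBa-SR, 79.8 with AdOVA and TNFa, 79.2 with AdOVA, 163 with TNFa alone and 164 in untreated cells. Both its virus states lay below the arrays without virus, with a difference for AdOVA of -1.04 (SE 0.32, adjusted p = 0.0497). None of the 5 measured poly(A)-binding genes and neither termination factor was called in any comparison.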

How the data were processed

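Total RNA (8 ug per sample) of 6 groups was hybridised to 1 array each. The authors deposited 1 linear intensity (signal) per probe set, computed by MAS5 according to the submitters' processing notes, which give no version here. Its 22690 rows include 64 control probe sets. Median signals were 88.5 and 82.6 on the AdOVA arrays with and without TNFa, and 74.4 to 77.4 on the other arrays. Shares of signals above the floor were 63.4% and 62.3% on those AdOVA arrays, and 57.9% to 59.2% on the others. The signal distribution thus differed along with AdOVA, and its part in the calls was not tested. The number of arrays limits the precision. Gene symbols came from the platform annotation and were matched to RefSeq by gene ID (20380 probe sets with 1 symbol, 691 with several, 1555 with none); 5 probe sets with several symbols that include an Eif gene were left out. Signals were floored at 53.5, put on the log2 scale and fitted with limma 3.58.1 (R 4.3.3), with Benjamini-Hochberg adjustment over 14906 probe sets. On simulated data for AdOVA against no virus over 14906 probe sets, 83 of 200 changed at 2-fold and 200 of 200 at 4-fold were recovered. These rates hold for the simulated noise only. Whether the same shares would be found on the 6 arrays, with their differences in wash, run and signal distribution, was not tested. Signals on all arrays were named for called genes and for the widest and narrowest gene of each role by its brightest probe set. The members and gene lists were chosen with earlier results of these data known. The alternatives were other scalings, floors, filters, fits and fold thresholds, and each array left out.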

Additional observations from a re-analysis of the deposited data

How the results depend on the processing

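No paired analysis was possible because the labels carry no replicate numbers; the pairs of arrays compared here share only a TNFa state. With each array left out in turn, which also needed the additive fit, the Eif probe sets called lower with AdOVA against no virus numbered 0 to 14 (13 with all arrays), those called higher 0 to 1, and those called higher with AdIkBa-SR against AdOVA 0 to 4 (11 with all arrays). In the same order, these 3 counts were 7, 0 and 5 with signals scaled to equal medians, 0, 0 and 0 with quantile normalization, a floor of 100, no filter or the additive fit with the fluidics run as a block, and 5, 0 and 4 with the additive fit of all 6 arrays. The 13 and 11 given with all arrays came from the fit with separate TNFa responses. The ranges with an array left out came from the additive fit, so the counts to set beside them are 5 and 4. Over all probe sets, the shares were 1.96%, 2.12% and 2.09% with equal medians. With the additive fit of all 6 arrays they were 1.19%, 2.11% and 0.886%. Without a variance trend the last 2 counts were 0 and 5, beside 3.24% and 2.28% of all probe sets. With probe sets above the floor on all 6 arrays the last count was 17, beside 6.62% of all. In that setting 1 Eif probe set of 80 was called lower with TNFa, beside 1.64% of all. Fewer probe sets at 2-fold than at 1.5-fold in both pairs were found by construction: at 1.5-fold they numbered 17 lower and 1 higher with AdOVA, 1 lower with TNFa and 13 higher with AdIkBa-SR against AdOVA. No share over all probe sets is given at 1.5-fold, so these counts cannot be set against the whole array. Averaged by gene, 0 genes were 2-fold lower with AdOVA and 1 was higher with AdIkBa-SR against AdOVA, a count that was 5 with equal medians and 1 with quantile normalization. No share over all genes is given beside these gene counts. The 25 called differences of single probe sets kept their sign in all 375 recomputations, with 114 still called and 261 not; other causes of lost calls were not tested. These recomputations used the arrays from which the 25 were picked, or all but 1 of them, so a kept sign was close to fixed beforehand. Every one of the 25 also rests on the AdOVA arrays. Equal medians moved the median of all probe sets in the pair AdIkBa-SR with TNFa against AdOVA with TNFa by over 0.1, to 0.00 against -0.12, and the Eif median there was 0.25 against 0.13.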
